A study of Caenorhabditis elegans with 4 samples.

Results

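Compound CES-1 regions are places in the Caenorhabditis elegans genome where the combined list of CES-1 peaks holds overlapping rows. They were chosen by their called intervals alone. Rows that repeated the chromosome, start and end of another were dropped, every remaining row that overlapped another by at least 1 bp was kept, and overlapping rows were chained into sites. This gave 1056 of 8612 distinct rows (12.3%), in 524 compound sites. The other 7556 rows overlapped no other and are called single rows below. The rule used these intervals, and the replicate lists come from the same experiment, so the differences between compound and single rows are descriptions and carry no test.

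The study used chromatin immunoprecipitation and sequencing (ChIP-seq) with anti-GFP antibodies in embryos of strain OP174, a mixed population of males and hermaphrodites. This strain has the mutation unc-119(ed3) and the transgene wgIs174, which holds unc-119 and ces-1 fused to TY1, EGFP and FLAG. The 2 ChIP and 2 Input libraries all came from this strain at 20 degrees Celsius, so there was no second genotype, stage or treatment, and Input lists were not analysed here. The transgene was introduced by bombardment, and the labels describe the fusion as expressed where and when ces-1 normally is. Nothing in the labels states that the replicates were separate cultures, and whole embryos were used, so the cells in which a site was bound are unknown.

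CES-1 belongs to the Snail family of zinc-finger proteins, transcription factors that bind E-box-like DNA and mostly act as repressors. In C. elegans it is best known from a pair of pharyngeal neurons, the NSM neurons, whose sister cells normally die by programmed cell death and survive when CES-1 is overactive. In ChIP-seq, each bound place gives a pile of sequenced fragments, and a peak caller turns piles into intervals. Contacts that lie closer together than a fragment can appear as 1 broad interval or as several overlapping ones, so intervals that overlap need not be separate contacts.

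The combined list held 8678 rows, 66 of them repeats, and each replicate list held 30000. Each row carried the authors' score and a Peak_ number that ranks it, with 1 the best. The score stood at a shared ceiling of 3.97 in 4629 combined rows, so numbers were used for rank. The lists hold no read counts, so depth is unknown, and coordinates are those of build WS220, counted from 1. Intervals given for shares are 95% exact binomial intervals that cover counting error only, and neighbouring rows are not independent.

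Most compound sites were simple pairs of rows shifted along the chromosome. Of the 524 sites, 516 (98.5%) had 2 rows and 8 had 3, the most in the list. Sites were 639 bp wide at the median and ran from 211 to 1143 bp, and together they covered 0.315 Mb. The rows themselves had a median width of 440 bp in compound sites and 440 bp among single rows, and 70.2% and 69.4% of them had exactly this width. Compound rows were therefore not wider than the rest at the median, although single rows reached 1307 bp and compound rows only 701 bp. Neighbouring rows shared a median of 194 bp, or 53.3% of the shorter row.

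The centres of neighbouring rows lay at a narrow range of distances. Among 532 neighbouring pairs the median distance was 207 bp, with quartiles of 199 and 228 bp. Distances from 175 to below 250 bp made up 412 pairs (77.4%). A further 30 pairs lay from 25 to below 175 bp apart, 66 pairs lay 250 bp or more apart, and 24 pairs lay less than 25 bp apart. In the 274 pairs whose rows both had the commonest width the median distance was 206 bp.

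The same spacing stood in the replicate lists, which include many weaker rows. From 200 to below 225 bp they held 2103 neighbouring pairs in replicate 1 and 2331 in replicate 2. From 150 to below 175 bp they held 25 and 26 pairs. From 425 to below 450 bp, around the length of a row, they held 7 and 7, and from 600 to below 625 bp they held 256 and 269. Neighbouring peaks of this series thus rarely lay under 175 bp or between 400 and 475 bp apart. The reason for this spacing was not tested.

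**Figure D1:**
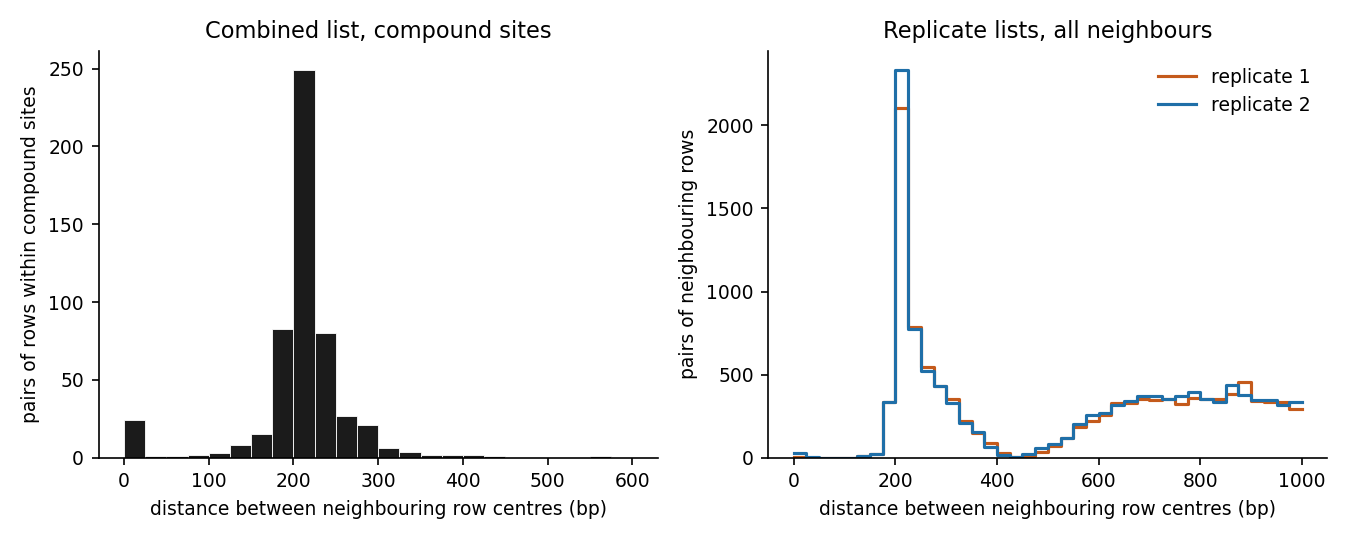
Number of pairs of neighbouring rows by the distance between their centres, in bins of 25 bp. Left, pairs within compound sites of the combined list. Right, all neighbouring distinct nuclear rows of the replicate 1 and replicate 2 lists. The compound pairs peak at 200 to below 225 bp (249 pairs), where both replicate lists also have their highest bin.

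A small class of sites held nearly the same interval listed again. In all of the 24 pairs with centres less than 25 bp apart the rows shared a start (22 pairs) or an end (2 pairs). They are called near-coincident below, a division made after the distances had been seen. These pairs made up 23 sites on their own, and 1 pair belonged to a site of 3 rows, which left 501 sites whose rows were set apart. The near-coincident pairs had a median better number of 364 and a median worse number of 5841, and in 8 of the 24 pairs both rows stood at the score ceiling. Their numbers differed by a median of 15.1-fold, with a range of 1.57 to 378-fold. Such pairs filled 7 of the 10 best-ranked compound sites and 10 of the 20 best-ranked.

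Within a site, the row at the lower coordinate almost always had the better number. This was so in 497 of 532 neighbouring pairs (93.4%, interval 91.0 to 95.4), and in 473 of 508 pairs (93.1%) without the near-coincident ones. Where the scores of a pair differed, the share was 414 of 445 (93.0%), and where both rows were at the ceiling it was 83 of 87 (95.4%). It ran from 87.5% on chromosome III to 97.2% on chromosome V, with I, II, IV and X between. Lower and higher refer to the centres of the rows. In the 22 near-coincident pairs that share a start, the lower row is thus the shorter one. Lower and higher coordinates are a convention of the reference sequence, and a peak has no strand. The direction therefore refers to the assembly and not to any gene.

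The preference followed the distance between centres. From 175 to below 250 bp, the lower row was better in 98.6% of neighbouring pairs of the combined list, 91.1% of those of replicate 1 and 92.2% of those of replicate 2. From 250 to below 300 bp the shares were 64.2%, 67.8% and 68.1%. From 500 to below 1000 bp they were 51.5% (interval 48.0 to 55.0), 45.2% (43.9 to 46.4) and 44.9% (43.7 to 46.2). The order there was even within counting error in the combined list. In both replicates it leaned slightly to the higher row. Among 494 close neighbours that did not overlap, with a gap under 440 bp, the lower row was better in 275 (55.7%, interval 51.2 to 60.1). The order within compound sites thus differed from that of close neighbours outside them by far more than counting error. The reason was not tested.

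**Figure D2:**
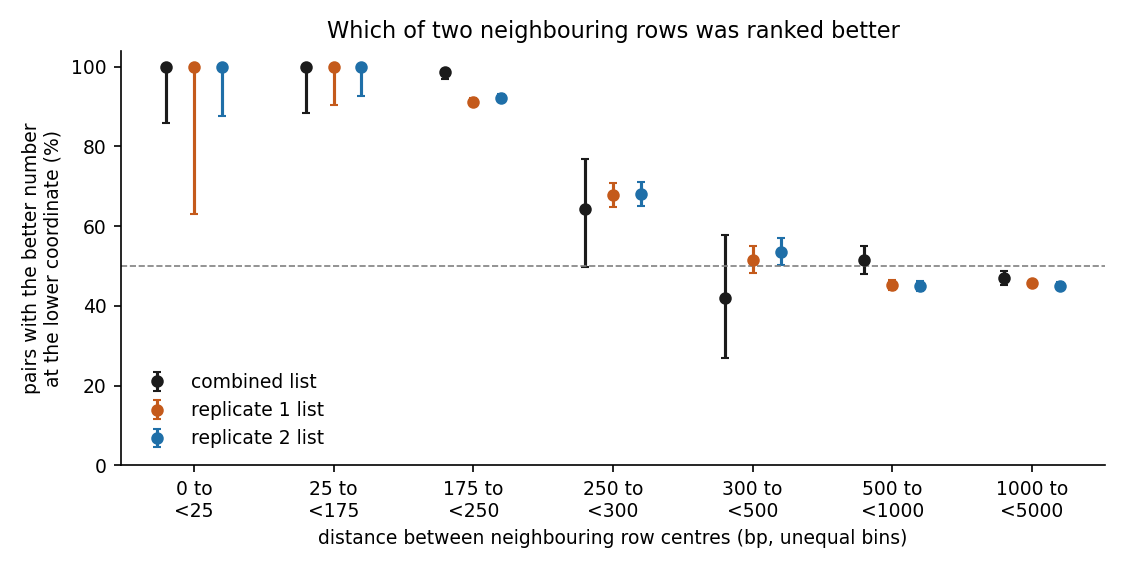
Share of neighbouring row pairs in which the row at the lower coordinate had the better Peak_ number, by the distance between centres, for the combined, replicate 1 and replicate 2 lists. Points are shares, bars are 95% exact binomial intervals for counting error, and the dashed line marks an even split. Shares are above 90% in all lists below 250 bp and between 41.9% and 53.6% from 300 bp on.

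The rows of a pair also differed in width by side. In the 508 pairs set apart, 90.2% of the higher-coordinate rows had exactly the commonest width, against 56.5% of the lower-coordinate rows. The lower row was thus more often an interval of its own length and the higher row one of the standard length. The lower row was also the better-numbered in 473 of these 508 pairs (93.1%), and width by side was not separated from width by rank.

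Compound rows were ranked somewhat below single rows. Their median number was 4935.5, against 4270 for single rows, and 46.9% of them (interval 43.8 to 49.9) stood at the score ceiling, against 54.2% of single rows (53.1 to 55.3). The share of rows that were compound was 10.6% among numbers 1 to 1000, 10.4% among 1001 to 2000, 14.1% among 5001 to 6000 and 15.3% among 8001 to 8678. For comparison, 12.3% of all distinct rows were compound.

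The rows of a site differed in rank. The best number per site had a median of 2599 and the worst a median of 6627.5. These are the lowest and highest numbers of each site, so rows drawn at random would also show a gap. Its size was not compared with such draws. Among the 516 sites of 2 rows, 321 (62.2%) had 1 row at the ceiling, 82 (15.9%) had both and 113 (21.9%) had none. Close neighbours that did not overlap had 1 row at the ceiling in 47.6% of pairs, both in 26.9% and none in 25.5%. The numbers of overlapping neighbours differed by a median of 2.18-fold, and by 2.09-fold without near-coincident pairs, against 1.74-fold in close neighbours that did not overlap. At the median, compound pairs were thus more unequal, although the 95th percentile was higher among the close neighbours that did not overlap (14.2-fold against 23.5-fold).

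**Figure D3:**
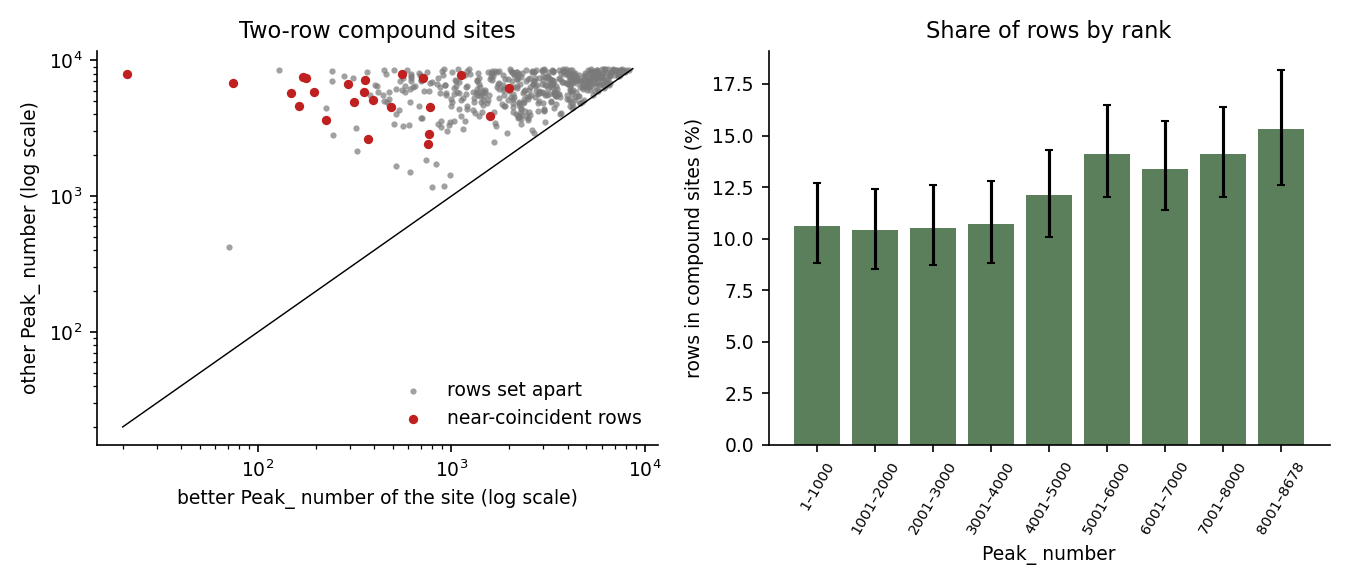
Left, better and other Peak_ number of each compound site of 2 rows, both on log scales, with equal numbers on the line and near-coincident rows in red. Right, percentage of distinct rows that belong to a compound site, by Peak_ number, with 95% exact binomial intervals. Near-coincident pairs differ by a median of 15.1-fold, though some lie among the other sites, and the share of compound rows rises from 10.6% in the first bin to 15.3% in the last.

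For each site, replicate rows were matched to the combined rows. A combined row was given a peak of its own where a replicate row held its centre and lay nearer to it than to the other rows of the site. In near-coincident sites a few bp decide this match, so the best replicate number and the count of replicate rows overlapping the site are given there. The rows counted need not repeat the near-coincident pair.

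The best-ranked compound site lay on chromosome I and was near-coincident. Its rows ran from 10196844 to 10197403 (number 21) and from 10196844 to 10197410 (number 7947). Its best matched rows were number 24 in replicate 1 and number 12 in replicate 2, and each replicate listed 2 rows there. With a 378-fold difference in number it was also the most unequal pair. The next such site, on chromosome II, had rows from 163261 to 163700 (number 74) and to 163732 (number 6854). Its best numbers were 84 in replicate 1 and 68 in replicate 2. Each replicate again had 2 rows overlapping the site, but neither had a peak matched to the row numbered 6854.

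Of the other 8 among the 10 best, 5 were near-coincident. Their strong rows began on chromosome II at 6116723 (number 148), 12067391 (number 178) and 11088078 (number 196), and on X at 8648488 (number 164) and 16595474 (number 171). The pair on X at 16595474 had centres 1 bp apart, the shortest distance, which a few other sites shared. Both replicates listed 2 rows at the sites starting at 6116723, 11088078 and 8648488, while replicate 2 listed 1 row at 16595474 and replicate 1 listed 1 row at 12067391. A pair on chromosome II from 11637163 to 11637727, ranked lower (numbers 1128 and 7791), shared the longest overlap, 563 bp.

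The strongest site with rows set apart was on chromosome III from 8416735 to 8417877. Its rows, 8416735 to 8417254 and 8417231 to 8417877, had numbers 71 and 423 and were both at the ceiling. Replicate 1 listed them as numbers 149 and 602, and replicate 2 as numbers 39 and 325. It was the widest site (1143 bp) and had the longest centre distance (560 bp) and only 24 bp of overlap. Both rows were thus strong in every list, and no other compound site had a worse number below 1000, the next being 1174 at a site on chromosome IV.

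The remaining sites among the 10 best paired a strong lower row with a weaker higher one. On X, the rows from 7281306 to 7281708 and from 7281530 to 7281969 had numbers 128 and 8454. Replicate 1 gave them numbers 142 and 17570, and replicate 2 numbers 112 and 4778. On chromosome III, the rows from 10989349 to 10989732 and from 10989536 to 10989975 had numbers 224 and 4453, with 281 and 5696 in replicate 1 and 199 and 3172 in replicate 2. Both replicates put the lower row of each pair first.

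The other chromosomes entered further down. The best site of chromosome V, from 8594096 to 8594509, had numbers 280 and 7634, with 353 and 6466 in replicate 1 and 258 and 12137 in replicate 2. The best site of chromosome IV, from 11782877 to 11783446, had numbers 368 and 8288, and its second row had a peak in replicate 2 alone, as number 6436. The narrowest site of all, on chromosome II from 11086862 to 11087072, was 211 bp wide, and its rows (numbers 1969 and 6349) were 117 and 115 bp wide. Both of its rows had a peak in each replicate, numbers 1724 and 10913 in replicate 1 and 2359 and 6945 in replicate 2. The genes at these sites were not analysed here, because no WS220 annotation was used.

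The 8 sites of 3 rows lay on X (3 sites), IV (2 sites), I, III and V. The best-ranked was on X from 17479521 to 17480245, with numbers 609, 1197 and 6434 from the lower to the higher coordinate. Each replicate had a peak for only 2 of its rows. The site on chromosome I, from 3721055 to 3721957, had numbers 674, 3712 and 5824, and its last rows shared their end. On chromosome IV, the site from 13028008 to 13028812 was the only one of the 524 with 3 rows at the ceiling, with numbers 1848, 2767 and 2343.

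Only 2 of the 8 had a peak for every row in both replicates. On chromosome IV, the site from 8015624 to 8016290 had numbers 2148, 2116 and 5080, with 2132, 2240 and 3348 in replicate 1 and 2130, 2310 and 8675 in replicate 2. On X, the site from 12049529 to 12050558 had numbers 5573, 7936 and 6234, with 7008, 9068 and 4076 in replicate 1 and 5338, 10551 and 12026 in replicate 2. Of the others, that on X from 4870681 to 4871616 had numbers 834, 8369 and 5525. That on chromosome III from 4560418 to 4561393 had numbers 4701, 7906 and 7808. The site on chromosome V from 17870592 to 17871503 was the most even, with numbers 6704, 6736 and 6911 and centres 236 bp apart on both sides.

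Every compound site was found in both replicates, but its separate rows were not always. All 524 sites overlapped a row of each replicate list (interval 99.3 to 100%). Counted row by row, 1053 of 1056 (99.7%) overlapped both lists, against 7446 of 7556 rows that overlapped no other (98.5%) and 98.7% of all distinct rows. This share is near the background and is not a result about compound rows.

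The harder question was whether a replicate alone also listed separate peaks. By the matching described above, 408 sites (77.9%) had separate peaks for at least 2 rows in replicate 1 and 400 (76.3%) in replicate 2. Both replicates had them in 309 sites (59.0%, interval 54.6 to 63.2), replicate 1 only in 99, replicate 2 only in 91, and neither in 25 (4.77%). Among sites with rows set apart, both had them in 306 of 501 (61.1%). Near-coincident rows can hardly be told apart by this matching. Counted without it, 12 of the 23 near-coincident sites were overlapped by 2 or more rows in both replicates. These rows need not repeat the near-coincident pair. The whole replicate 1 list held only 8 neighbouring pairs with centres less than 25 bp apart.

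The support rested on weak replicate rows as well as strong ones. When each replicate list was cut down to its 8678 best-numbered nuclear rows, the length of the combined list, both replicates had separate peaks in 125 sites (23.9%). Of sites set apart, both replicates had separate peaks in 70.6% with a best number up to 1000, in 68.5% from 1001 to 4000 and in 44.0% above 4000. In sites of 2 rows set apart, the better row had its own peak in both replicates in 79.3% and the weaker row in 79.5%. Each replicate row was matched by the nearest centre. In some of these sites a strong replicate row was matched to the weaker combined row, and the better row had none. Both shares also come from the same sites, so separate intervals cannot compare them. Whether support differed between better and weaker rows was not tested.

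Single rows were less often split in the replicates, though they are narrower. Both replicates had 2 or more rows in 363 compound sites (69.3%), against 645 single rows (8.54%). Exactly 1 row in both was seen in 12 compound sites (2.29%), against 4481 single rows (59.3%). Compound sites were wider than single rows by the rule that chains them, which raises the number of rows they can overlap.

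**Figure D4:**
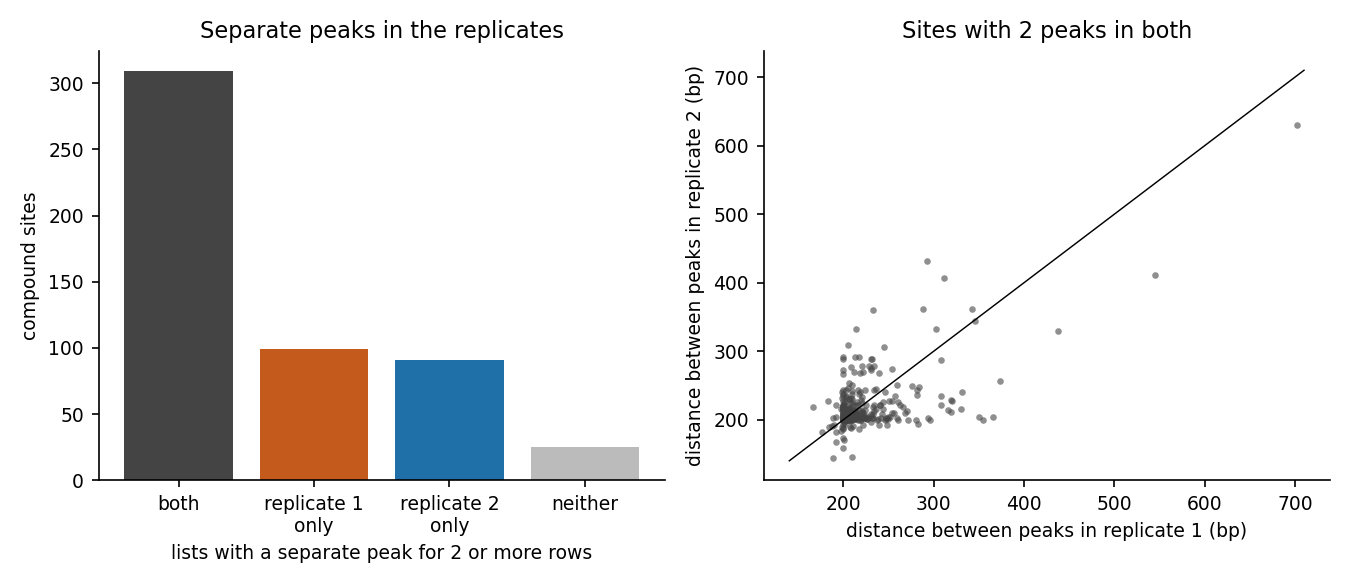
Left, number of the 524 compound sites with a separate peak for at least 2 rows in both replicate lists, in 1 of them or in neither. Right, distance between the centres of the peaks in replicate 1 and replicate 2, in bp, for the 300 sites of 2 rows set apart that had a peak for each row in both, with equal distances on the line. Both replicates split 309 sites, and most distances lie near 200 bp in each.

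The distances and the order of the paired peaks were then taken from each replicate. The sites used were kept because each replicate had a peak holding each row's centre, which ties the distances to those of the combined rows, so they are descriptions. In the 300 sites of 2 rows set apart with a peak for each row in both lists, the median distance was 209 bp in replicate 1, 209 bp in replicate 2 and 210 bp in the combined list. The distances in the replicates differed by a median of 16.8 bp, and by at most 50 bp in 253 sites (84.3%). The same row was better-numbered in both replicates in 280 sites (93.3%, interval 89.9 to 95.9). It was the same in 190 of 191 sites whose combined numbers differed 2-fold or more, and in 90 of 109 sites below 2-fold.

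This agreement in order is tied to the direction given above, since the lower row was better in 288 of the 300 sites. Where the combined list put the lower row first, the replicates had the same order in 276 of 288 sites (95.8%). Where it put the higher row first, they had the same order in 4 of 12 (33.3%, interval 9.92 to 65.1). The shared order was thus mostly the lower-coordinate row ranking first, and how it relates to binding was not tested.

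Compound sites were spread over all chromosomes much as single rows were. Chromosome X held 22.3% of compound rows (interval 19.8 to 24.9), against 23.3% of single rows, and chromosome I held 19.8%, against 17.6%. Chromosome III held 13.5%, against 15.6%, and chromosome V 13.4%, against 14.0%. The share of rows that were compound ran from 10.8% on III to 13.6% on I, beside the 12.3% over all rows. Sites were densest on chromosome I, with 6.91 per Mb, and least dense on V, with 3.35 per Mb. Distinct rows of all kinds were also denser on I (1538 rows over 15053061 bp) than on V (1199 rows over 20922521 bp). The window of 1 Mb with the most sites lay on chromosome I at 9000001 to 10000000, with 17 compound sites and 119 single rows.

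Each chromosome's span was divided into 3 equal parts. On the autosomes, the middle part held 43.0% of compound rows (interval 39.6 to 46.5), against 41.9% of single rows. On X it held 64 of 235 compound rows (27.2%, interval 21.6 to 33.4), against 642 of 1757 single rows (36.5%, 34.3 to 38.8). X was the only one of the 6 chromosomes where these intervals did not overlap in the combined list. The 235 compound rows on X came from 116 sites, and rows of a site lie together, so their interval is too narrow. Without near-coincident rows the X shares were 27.8% (22.0 to 34.2) and 36.5% (34.2 to 38.8). The facing bounds are equal at this rounding, so whether these intervals overlapped is undecided. The compound share itself changed little, from 27.2% with those rows. When compound rows were rebuilt from the best-numbered rows of each replicate, the X shares were 32.4% in replicate 1, against 36.2% of its single rows, and 33.2% in replicate 2, against 35.5%. The gap on X was thus smaller in each replicate alone. On the autosomes the gap was larger in each replicate than in the combined list. The middle part held 48.5% of rebuilt compound rows in replicate 1 (interval 45.3 to 51.6), against 40.3% of its single rows (39.0 to 41.6). In replicate 2 it held 48.6% (45.2 to 51.9), against 42.7% of single rows (41.4 to 44.0). The intervals for compound rows overlapped between the combined list and each replicate, on the autosomes and on X (27.1 to 37.9 in replicate 1, 27.2 to 39.6 in replicate 2). Whether the position of compound rows along chromosomes depends on the list was not tested.

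Compound sites lay in denser surroundings than single rows. The nearest row outside the site lay at a median of 1111.5 bp (95% interval of the median 1013 to 1338), against 1773 bp from a single row to the nearest other row (1718 to 1830). Another compound site lay at a median of 51554 bp, and 124 sites (23.7%) had one within 10 kb.

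The limit of 1 bp falls within a thin part of the distribution. The pairs with the least overlap lay on chromosome IV at 6839108 to 6839467 (6 bp, numbers 1665 and 4172), on II at 11440137 to 11440595 (12 bp, numbers 324 and 2136) and on V at 4969130 to 4969440 (12 bp, numbers 4340 and 7221). Just outside were rows on III ending at 6280327 and starting at 6280330 (gap of 2 bp, numbers 1563 and 3447). The next were rows on I ending at 1823211 and starting at 1823214 (2 bp, numbers 2107 and 3597) and on V ending at 14851464 and starting at 14851471 (6 bp, numbers 1109 and 4329).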

How the data were processed

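Peak lists of the 2 ChIP replicates and 1 combined list were analysed. Per the file headers, coordinates follow WormBase WS220. Each deposited row gives as its source SPP (a peak caller) via IDR (irreproducible discovery rate). The aligner, tool versions, thresholds and the step that combined the replicates were not given in the sources used here. The score of each row is the authors' own, of unstated scale, and ranks peaks within a list only. Peak_ numbers are also theirs. Per the labels' protocols, worms were crosslinked with 2% formaldehyde.

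Rows were read and chained in Python 3.11.15 with pandas 2.3.3. Intervals used scipy 1.17.1, arrays numpy 2.4.6 and plots matplotlib 3.10.9. Of repeated intervals the best-numbered stayed. Centres are interval midpoints, and a chromosome's span ends at the last row of any list. Chaining and replicate support were tested on simulated lists. Shares have exact binomial and medians order-statistic 95% intervals. Regions are not replicates, so no test was run. Alternatives were a minimum overlap of 50 bp or 50% of the shorter row, chaining over gaps up to 100 bp, repeats kept, rows at the ceiling only, best-numbered replicate rows only, and each replicate left out. Members, measures and alternatives were chosen with earlier results of these data known. Sites named are the 10 best, the best per chromosome, those of 3 rows and the extremes of width, distance, overlap and number; the near-coincident class, the order by coordinate, the middle part by replicate, the count among the 20 best and the strongest site set apart were added after values were seen.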

Additional observations from a re-analysis of the deposited data

How the results depend on the processing

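The 10 results were recomputed under 11 settings, which gave 77 values, of which 59 stayed within 1.5 times the count or within the interval of the value, 18 moved and 0 reversed. Where overlap had to reach 50% of the shorter row, 684 rows in 342 sites were left, with a median distance of 202 bp and the better number at the lower coordinate in 99.1%; this setting removes distant pairs by construction. Among rows at the score ceiling only, 173 rows in 86 sites were left, with a median width of 566 bp, a distance of 208 bp, a lower-coordinate share of 95.4% and 47.4% of autosomal rows in the middle part. With only the best-numbered replicate rows, both replicates overlapped 95.2% of sites and split 23.9%. Compound rows rebuilt without replicate 1 or 2 gave a median width of 636 to 642 bp, ceiling shares of 44.9% to 61.7% and middle-part shares of 48.5% to 48.6%; for these the cause was not tested, and the replicate lists hold 4148 and 5628 rows at their ceilings, against 4629 in the combined list. Asking 1 list in place of both gave separate peaks in 76.3% to 77.9% of sites. Dropping near-coincident rows, chosen after seeing the data as were all alternatives for the order by coordinate, left 1009 rows in 501 sites. Depth is unknown, so rows that deeper sequencing would separate cannot be counted.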

Other observations

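The full replicate lists were far richer in overlapping rows than the combined list. In replicate 1, 32.4% of distinct nuclear rows overlapped another, in 4651 chains of up to 5 rows, and in replicate 2 it was 33.5%, in 4800 chains of up to 5 rows. The replicate lists also held near-coincident neighbours, 8 pairs in replicate 1 and 28 in replicate 2. In all of these the row counted as lower by its centre was better-numbered.

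The repeated rows dropped at the start belonged to 63 intervals, listed in 129 rows, and the best of these had number 3. None of the 63 lay in a compound site (0 of 63), while 12.3% of all distinct rows were compound. Keeping the repeats would have given 1185 rows in 587 sites.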
